A study of Mus musculus with 5 samples.

Results

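IgG2/IgG3 plasma cells of the B220-negative sort gates were the cells whose heavy-chain transcripts came mainly from Ighg2b, Ighg2c or Ighg3. A cell was a member when it held at least 10 unique molecules (UMIs) over Ighm, Ighg1, Ighg2b, Ighg2c, Ighg3, Ighe and Igha, and at least 70% of them came from those 3 genes. The rule found 238 members among 3128 cells of the 3 B220-negative libraries (5476 cells in all 5 libraries). Members were thus chosen by measured heavy-chain counts, so immunoglobulin genes are given as a description only and were left out of every test. IgM cells of the same libraries (1932 cells, at least 70% Ighm) were the reference, and IgA cells (902 cells, at least 70% Igha) the other comparison.

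The study sorted plasma cells from unimmunized, untreated male C57Bl6/N mice aged 8 to 12 weeks, pooling 3 mice for each library. Sorted cells were CD138-high, Ly6g- and CD11c-, and were divided by B220, a long form of CD45 carried by B cells, and by how much they took up of the fluorescent glucose analog 2NBDG. The groups used here were spleen B220-2NBDG-, spleen B220-2NBDG+ and bone marrow B220-2NBDG+, with spleen B220+2NBDG- and spleen B220+2NBDG+ for comparison. Each group was 1 library of 10x 3' single-cell RNA sequencing, so no comparison between gates or organs had a replicate. Below, values in series are in the order spleen B220-2NBDG-, spleen B220-2NBDG+, bone marrow.

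An IgG2 or IgG3 plasma cell descends from a B cell that recombined its heavy-chain locus, replacing the mu constant region with a downstream gamma region. In mice, interferon-gamma and the transcription factor T-bet favour the switch to IgG2c (IgG2a in some strains), TGF-beta favours IgG2b, and IgG3 is typical of responses to polysaccharides and other T cell-independent antigens. Once switched, the cell builds an enlarged endoplasmic reticulum (ER) that folds, glycosylates and exports antibody.

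The call of a subclass rests on how far the 3 gamma genes differ where a 3' library reads them. The last 120 coding bases of each secreted form, with the stop codon, are shown from the GRCm38 reference, 5′ to 3′ on the minus strand of chromosome 12, and capitals mark bases that differ from either of the other genes at the same position.
Ighg2b: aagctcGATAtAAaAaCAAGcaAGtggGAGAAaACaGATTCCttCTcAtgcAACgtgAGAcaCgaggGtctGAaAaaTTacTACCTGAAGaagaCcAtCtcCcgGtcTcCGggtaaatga
Ighg2c: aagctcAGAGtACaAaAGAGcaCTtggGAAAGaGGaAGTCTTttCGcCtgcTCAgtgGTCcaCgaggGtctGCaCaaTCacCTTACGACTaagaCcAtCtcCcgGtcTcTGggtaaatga
Ighg3: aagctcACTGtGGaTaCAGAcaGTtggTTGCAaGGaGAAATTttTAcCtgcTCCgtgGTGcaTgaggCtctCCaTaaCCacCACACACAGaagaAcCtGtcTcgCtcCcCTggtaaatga
These stretches lie at chr12:113306389-113306508, chr12:113287389-113287508 and chr12:113359665-113359784. Over the whole last coding exon of 323 bases, Ighg2b and Ighg2c were identical at 76.8% of positions, Ighg2b and Ighg3 at 65.9%, and Ighg2c and Ighg3 at 65.0%. In the 120 bases shown, the pairs differed at 37, 46 and 42 positions. Over the whole exon of 323 bases, their longest identical run was 19, 16 and 13 bases.

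Members made up 69 of 1296 cells of spleen B220-2NBDG- (5.32%, exact 95% binomial interval 4.17 to 6.69%), 110 of 894 of spleen B220-2NBDG+ (12.3%, 10.2 to 14.6%) and 59 of 938 of bone marrow (6.29%, 4.82 to 8.04%; 35 cells, 3.73%, when at least 90% of heavy-chain UMIs were required). The 2NBDG+ spleen gate held the highest share of these 3, and its interval did not overlap the others. In the B220-positive gates the same rule took 412 of 1222 cells (33.7%) without and 531 of 1126 (47.2%) with 2NBDG. The intervals cover counting error only, and the sort gates themselves can set these shares.

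Ighg2c led in 30 members of spleen B220-2NBDG- (43.5%) and 50 of spleen B220-2NBDG+ (45.5%), but Ighg2b led in bone marrow, in 34 members (57.6%). Ighg2b cells numbered 24 (34.8%) and 44 (40.0%) in the spleen, and Ighg2c cells 21 (35.6%) in bone marrow. Ighg3 cells were the fewest in each library, 15 (21.7%), 16 (14.5%) and 4 (6.78%, exact interval 1.88 to 16.5%). Ighg2c led more widely in the B220-positive gates, in 61.4% and 58.2% of their IgG2/IgG3 cells.

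**Figure D1:**
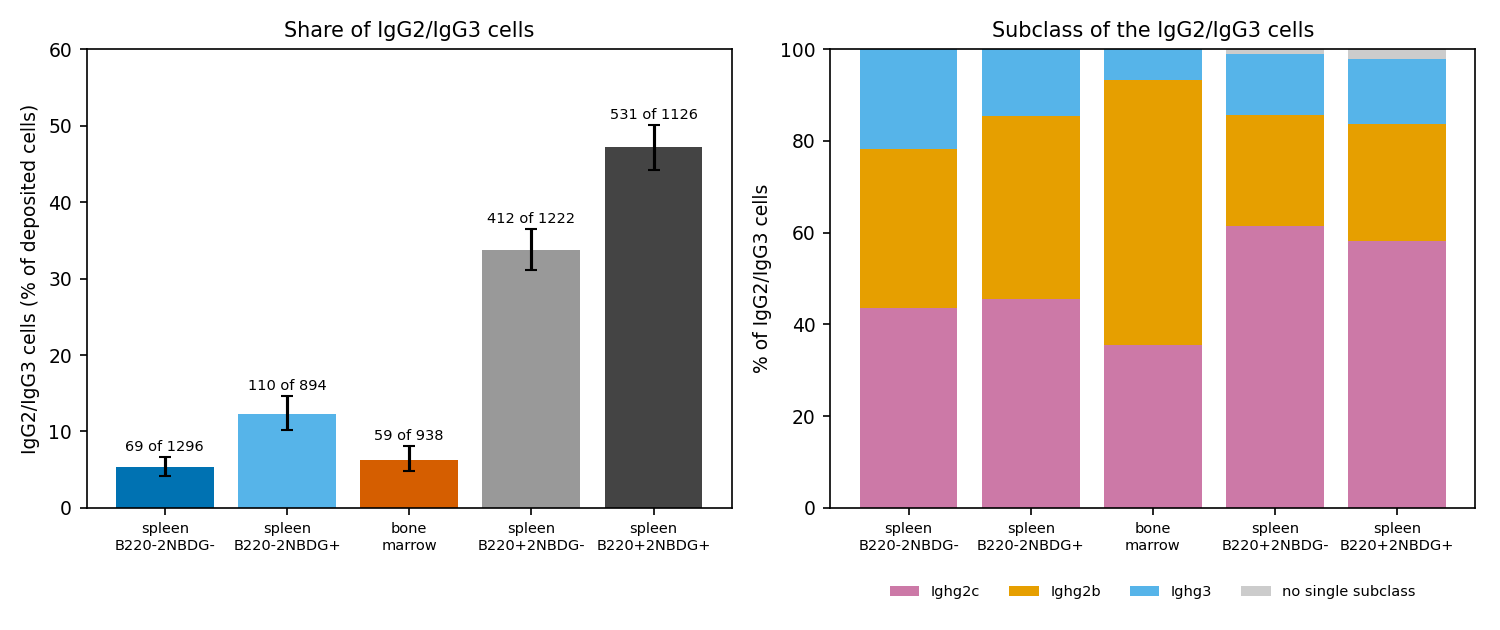
Left, the share of IgG2/IgG3 cells among the deposited cells of each of the 5 libraries (percent; bars start at 0, error lines are exact 95% binomial intervals); right, the share of each subclass among them (percent). The B220-positive gates hold 33.7% and 47.2%, the B220-negative gates 5.32 to 12.3%, and Ighg2b makes up more than Ighg2c only in bone marrow.

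The members were far from the cut in their heavy-chain counts. Their median was 1297, 2140.5 and 2251 heavy-chain UMIs, and the lowest member held 210, 232 and 237. The median share from the 3 gamma genes was 96.7%, 97.3% and 91.0%. In bone marrow the remainder was largely Igha, at a median of 5.86% in members and 4.56% in IgM cells of that library. The members nearest the cut had gamma shares of 87.1%, 89.1% and 72.3%, and the nearest cells outside it 31.8%, 60.9% and 59.1%. Kappa light chain was the rule: lambda dominated in 4 of 69, 4 of 110 and 1 of 59 members.

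Depth was close between members and their reference. Median non-immunoglobulin UMIs per member were 4158, 4223.5 and 6376, against 3607.5, 4293 and 6514.5 per IgM cell, and whole libraries held 9451886 to 15591435 UMIs. Scrublet marked 69 of 5476 cells as doublets (1.26%), of which 1, in bone marrow, was a member. Over all pairs of libraries 11 cell barcodes were shared, none of them between members. Cells with at least 3 UMIs over 8 cell cycle genes numbered 4 of 69 (5.80%, exact interval 1.60 to 14.2%), 1 of 110 and 0 of 59 members (3 counts of which would be 5.08%; exact upper limit 6.06%). Among IgM cells they numbered 8 of 1080 (0.741%, 0.320 to 1.45%), 0 of 558 and 0 of 294. After thinning to 2000 UMIs they numbered 1 of 55, 0 of 99 and 0 of 55 members, against 5 of 918 IgM cells in spleen B220-2NBDG- and none in the others. The exact interval for 1 of 55 was 0.046 to 9.72%, too wide to decide about the difference in spleen B220-2NBDG-.

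Members carried the transcripts that define plasma cells. Levels are in CPM, the UMIs of a gene scaled to a fixed total of non-immunoglobulin UMIs, summed over the cells of a class in a library. Xbp1, the factor that drives the secretory program, measured 3986, 5117 and 4585 CPM (IgM cells 3193, 3689 and 3963), and Sdc1, which encodes CD138, 397, 596 and 593 (499, 525 and 620). Neither passed the test described next (log2 difference 0.31, adjusted p = 0.14 and -0.08, adjusted p = 0.86, edgeR), nor did Prdm1, the plasma cell master regulator (-0.62, adjusted p = 0.20). Of 22 tested plasma cell identity genes 7 did pass: Fkbp11, Ly6c2 and Mzb1 were higher and Txndc5, Tnfrsf17, Jchain and Pou2af1 lower (median -0.08), with 3.74% of all genes called. Markers of other cells were low: 11, 10 and 10 of 12 T cell markers had no UMI in members, among them Cd3e, Cd3d and Trac, and the macrophage genes Lyz2, Csf1r and Adgre1 were at 0. The summed macrophage list reached 44.9, 55.4 and 73.1 CPM, almost all Cd68, against 25.2, 24.7 and 55.6 in IgM cells. The mature B cell list summed to 225, 162 and 197 CPM (IgM cells 276, 123 and 141), almost all Ms4a1 (CD20), with Cd22, Cxcr5, Fcer2a and Pax5 at 0.

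Members were compared with IgM cells of the same library, with 1 sum per class and library and the library as a block (edgeR's quasi-likelihood test with Benjamini-Hochberg adjustment over all genes). Of 6907 genes tested, 125 were higher in members (1.81%) and 133 lower (1.93%), together 3.74%, and 249 of these 258 moved the same way in all 3 libraries. These shares are the background for the list counts against IgM cells below. Scaling to all UMIs in place of non-immunoglobulin UMIs gave 73 higher and 118 lower. Cells of a library are no replicates, so the p-values measure the spread between these 3 libraries. The sums also give weight to clones that a pool of 3 mice may contain. Where genes below did not overlap between classes, this describes 3 values per class for genes already called. It is no separate support, and the share of all genes without overlap is not given.

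The chemokine receptor gene Cxcr3 and the protease inhibitor gene Slpi were the leading higher genes, at chrX:101731535-101734269 and chr2:164354070-164389095 (GRCm38, both on the minus strand). Cxcr3 encodes the receptor for interferon-induced chemokines and is a known target of T-bet. It measured 93.3, 57.5 and 22.7 CPM in members (27, 27 and 9 UMIs) and 5.05, 6.18 and 1.06 in IgM cells (21, 15 and 2 UMIs). Every member value lay above every IgM value, and bone marrow was lowest in both classes. The fitted difference was 3.72 ± 0.35 (log2, SE), a 13.1-fold higher level (adjusted p = 1.5e-07, edgeR). At 2000 UMIs per cell, 10.9%, 10.1% and 7.27% of members held a Cxcr3 UMI (26.1%, 12.7% and 13.6% unthinned), against 0.545%, 1.16% and 0.348% of IgM cells and 0%, 0.985% and 0.371% of IgA cells. Tbx21, the gene of T-bet itself, had 1, 2 and 0 UMIs in members and was too low to test.

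Slpi encodes secretory leukocyte peptidase inhibitor, a secreted blocker of neutrophil proteases. It reached 24322, 38024 and 103297 CPM in members and 2680, 5921 and 9194 CPM in IgM cells. The groups did not overlap, and in both the 2NBDG- spleen gate was lowest and bone marrow highest. The difference was 3.09 ± 0.14 (8.51-fold, adjusted p = 1.1e-13, edgeR). Slpi was uneven between cells of both classes. The members with the most Slpi (the top 10% of cells) held 59.1%, 62.4% and 43.8% of Slpi UMIs, and such IgM cells 59.4%, 41.4% and 47.6%. The median member measured 5470, 7465 and 63607 CPM (IgM cells 805, 3592 and 5387).

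**Figure D2:**
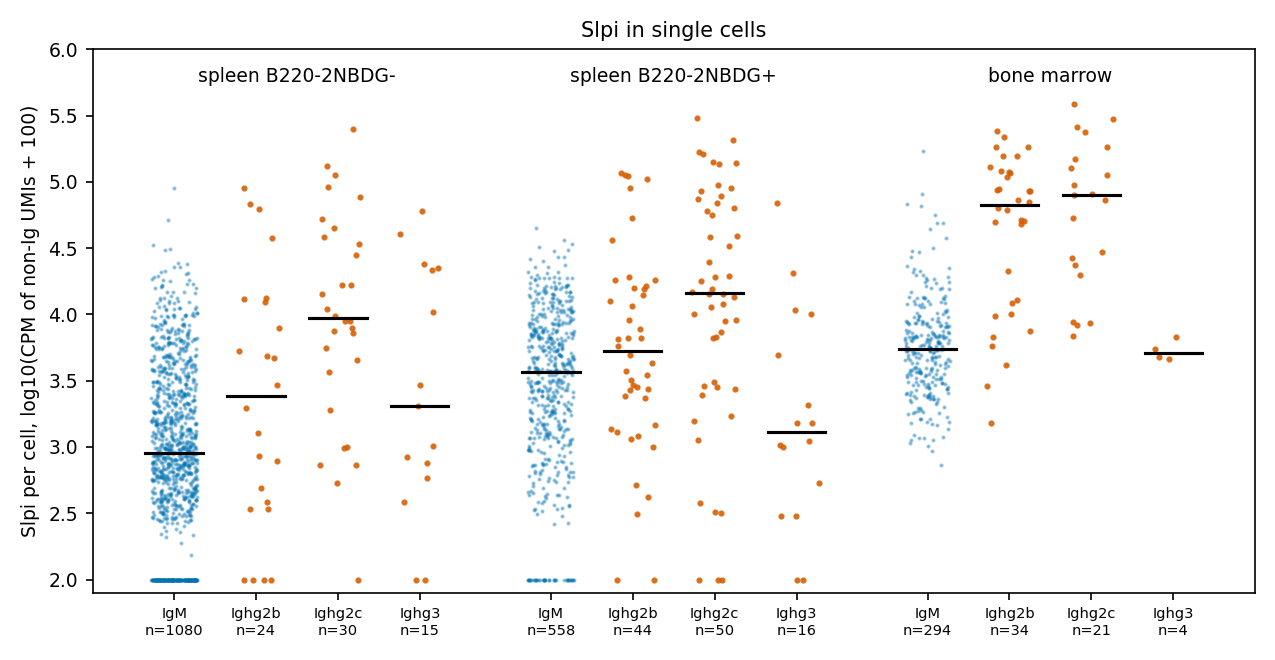
Slpi in each cell, as log10 of CPM plus 100, for IgM cells and for members led by Ighg2b, Ighg2c or Ighg3 in the 3 B220-negative libraries; lines are medians. Members spread widely, with a median of 63607 CPM in bone marrow against 5387 in IgM cells there.

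Genes of the interferon-gamma and T-bet list were partly higher. Of 22 list genes 11 could be tested; 4 were higher, none lower, and the median was 0.76 (log2) against -0.00058 over all genes. Besides Cxcr3 these included Gbp2 and Igtp, both interferon-induced GTPases of cell-autonomous defence. Gbp2 measured 38.0, 29.8 and 5.04 CPM (IgM 6.97, 4.12 and 1.59; 2.42 ± 0.45, adjusted p = 0.0012), and Igtp 48.4, 85.2 and 32.8 (27.4, 29.7 and 22.8; 1.03 ± 0.24, adjusted p = 0.011, edgeR). In both genes members were above IgM cells within each library, with bone marrow lowest. Igtp lost its call without spleen B220-2NBDG+ (0.66, adjusted p = 0.47), and DESeq2 kept 1 of the 4, lost 2 and gave no adjusted p for 1.

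Of 20 tested interferon-induced genes, Bst2, Isg20, Ifi47 and Samhd1 were higher and Ifi27l2a was lower (median 0.27). Bst2 (tetherin, which holds budding virus at the membrane) differed by 0.62 (adjusted p = 0.0047), Isg20, an RNA exonuclease, by 0.71 (adjusted p = 0.0053) and Ifi27l2a by -0.79 (adjusted p = 0.0031, edgeR). Ifi47, a GTPase related to Igtp, differed by 1.58 ± 0.38 (adjusted p = 0.015, edgeR) but by 0.44 without spleen B220-2NBDG+ (adjusted p = 0.89). Scaling to all UMIs kept 1 of the 4 higher genes, Ifi47, and lost Bst2 (0.57, adjusted p = 0.064), Isg20 (0.66, adjusted p = 0.066) and Samhd1 (0.54, adjusted p = 0.13). Isg20 also lost its call without spleen B220-2NBDG- (0.45, adjusted p = 0.087), Samhd1 without either spleen library (0.55, adjusted p = 0.077 and 0.56, adjusted p = 0.25), and Ifi27l2a without spleen B220-2NBDG+ (-0.67, adjusted p = 0.087).

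Promoters were read for the 8 genes called higher in these lists; 7 had a RefSeq entry (GRCm38.p6), and Isg20 had 3. Motifs were searched on both strands from 250 bases before to 50 after the start. The interferon response core GAAA NN GAAA was found in 3 of the 7 and in 3.44% of all 32851 promoters, the STAT element TTCNNNGAA in 4 and in 8.30%, and the T-box sequence AGGTGTGA in none and in 1.28%. The first counts are per gene, over all its entries, and the shares per promoter. The genes come from interferon and T-bet lists, so their counts beside all promoters do not bear on these cells. Uncalled genes of the lists are not given apart. The 100 bases before the start are shown for 3 genes, 5′ to 3′ on the gene's strand, with matches in capitals.
Cxcr3: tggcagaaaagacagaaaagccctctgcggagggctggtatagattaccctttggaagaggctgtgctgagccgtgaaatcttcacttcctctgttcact
Gbp2: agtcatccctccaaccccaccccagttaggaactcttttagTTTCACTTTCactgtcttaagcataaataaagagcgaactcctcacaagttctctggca
Igtp: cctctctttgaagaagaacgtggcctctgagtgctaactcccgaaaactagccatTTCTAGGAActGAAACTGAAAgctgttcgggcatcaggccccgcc
They lie at chrX:101734148-101734247 (minus strand), chr3:142620563-142620662 (plus) and chr11:58199456-58199555 (plus). The Gbp2 window holds the interferon core, on the opposite strand, starting 59 bases before the start site. The Igtp window holds the STAT element at 45 and the interferon core at 34 bases before it, and the Cxcr3 window holds none of the 3. A match is a description of the sequence, not of binding.

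MHC class II genes encode the molecules that present peptide to CD4 T cells and are normally silenced in plasma cells. H2-Aa, H2-Eb1 and H2-Ab1 were above the IgM level in the splenic members and at or below it in bone marrow. H2-Aa measured 394, 177 and 27.7 CPM in members and 118, 58.1 and 46.6 in IgM cells, and H2-Eb1 504, 300 and 119 against 153, 86.9 and 124. Splenic members were 3.34-fold and 3.04-fold above IgM cells for H2-Aa, whereas the bone marrow ratio was 0.595; for H2-Eb1 the ratios were 3.30, 3.45 and 0.956. The fit over the 3 libraries called H2-Aa (1.23 ± 0.22, adjusted p = 0.00081), H2-Eb1 (1.23 ± 0.20, adjusted p = 0.00024), H2-Ab1 (0.72 ± 0.14, adjusted p = 0.0028) and H2-Ob (0.93 ± 0.24, adjusted p = 0.022, edgeR), 4 of 7 tested with none lower and a median of 0.85. Over all genes tested, 1.81% were higher. H2-Ab1 measured 335 against 342 CPM in bone marrow, and it lost its call without spleen B220-2NBDG+ (0.52, adjusted p = 0.17). DESeq2 kept 2 of the 4 and did not call H2-Aa (0.94, adjusted p = 0.91) or H2-Ob (0.96, adjusted p = 0.26), and H2-Ob was lost without spleen B220-2NBDG+ (0.68, adjusted p = 0.38) and without bone marrow (0.95, adjusted p = 0.077). Cd74, the class II chaperone, did not pass (0.18, adjusted p = 0.55) and measured 13962, 16892 and 19142 CPM against 14760, 12838 and 15579. In the B220-positive gates, IgG2/IgG3 cells measured 1040 and 719 CPM of H2-Aa; how far cells near the B220 gate edge contribute to the splenic values was not tested.

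**Figure D3:**
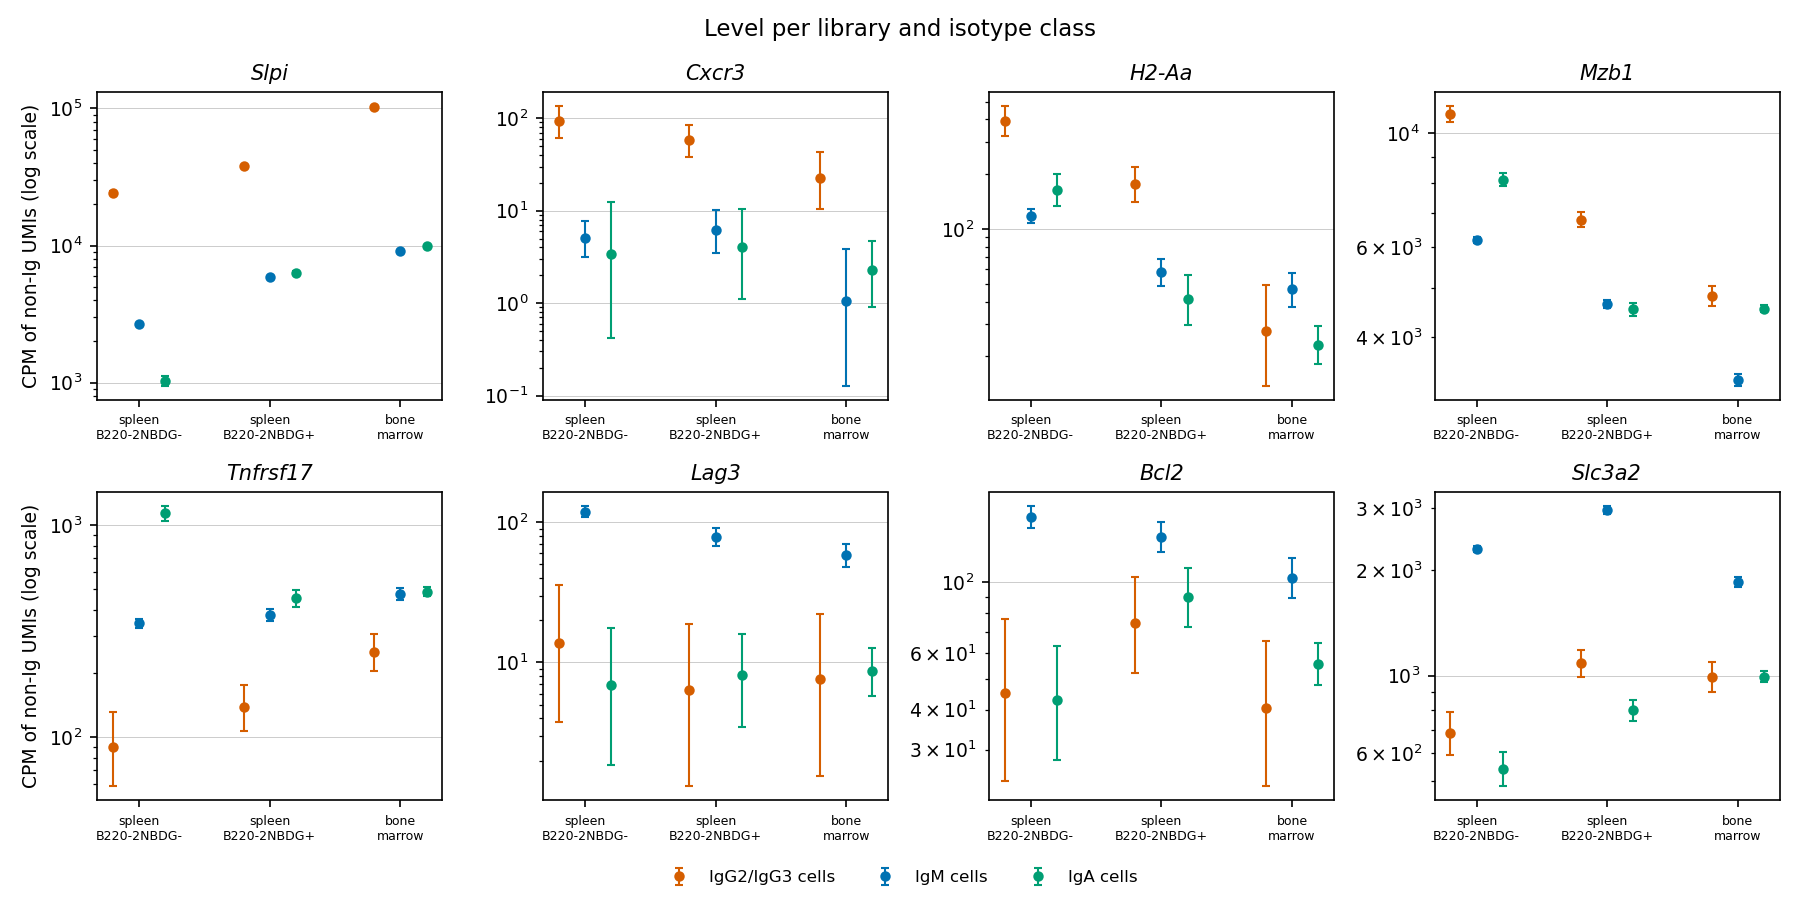
CPM (log axis) of 8 genes in IgG2/IgG3, IgM and IgA cells of each B220-negative library, with exact 95% Poisson intervals that cover counting error only. Slpi and Cxcr3 are higher and Lag3, Bcl2, Tnfrsf17 and Slc3a2 lower in IgG2/IgG3 than in IgM cells of the 3 B220-negative libraries, and H2-Aa is higher in the spleen but not in bone marrow.

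The other higher genes named by size were of mixed function. Napsa, an aspartic protease, measured 176, 330 and 159 CPM against 60.3, 94.3 and 28.6 (1.84 ± 0.18, adjusted p = 1.8e-07, edgeR). Sfn, which encodes 14-3-3 sigma, measured 446, 149 and 88.3 against 84.6, 50.3 and 48.2 (1.72 ± 0.18, adjusted p = 1.0e-06, edgeR), and Fgl2, a fibrinogen-like protein, 41.5, 66.0 and 17.7 against 9.61, 25.5 and 3.71 (1.64 ± 0.31, adjusted p = 0.0017, edgeR). For Napsa and Sfn the groups did not overlap, while the bone marrow members lay within the IgM range for Fgl2. 2610524H06Rik was also higher (1.47 ± 0.23), as were Hcst, a signalling adaptor (1.85 ± 0.38), the crystallin gene Crybb1 (2.37 ± 0.57), C1qtnf1 (2.21 ± 0.60) and Lpar6, a lysophosphatidic acid receptor (1.62 ± 0.44). The last 4 lost their call in some fits: Crybb1 stood at 1.40 without spleen B220-2NBDG- (adjusted p = 0.29), Hcst at 1.19 without bone marrow (adjusted p = 0.19), and C1qtnf1 was not called without bone marrow (2.38, adjusted p = 0.15), with all UMIs as the total or at 90% dominance (both 2.11), or Lpar6 without bone marrow (1.29, adjusted p = 0.26) or spleen B220-2NBDG+ (1.44, adjusted p = 0.29).

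Genes of the inhibitory and Fc receptor list were partly lower. Of 15 tested genes of the inhibitory list, Lag3, Ptpn6 and Cd200 were lower and none was higher (median -0.19), where 1.93% of all genes were lower. Lag3 (chr6:124904361-124911705, minus strand), a receptor that dampens lymphocyte activation and binds MHC class II, measured 13.8, 6.39 and 7.57 CPM in members (4, 3 and 3 UMIs) against 118, 78.3 and 58.3 in IgM cells, a 9.66-fold lower level (-3.27 ± 0.31, adjusted p = 1.8e-07, edgeR). Ptpn6, the phosphatase SHP-1 that carries signals of inhibitory receptors, measured 44.9, 40.5 and 55.5 against 187, 183 and 254 (-2.16 ± 0.18, adjusted p = 4.8e-08, edgeR). Cd200 measured 17.3, 21.3 and 7.57 against 59.6, 58.5 and 46.1 CPM (-1.85). None of these 3 overlapped between members and IgM cells. After thinning, 0%, 0% and 1.82% of members held a Lag3 UMI against 22%, 12.9% and 9.06% of IgM cells. IgA cells measured 6.86, 8.10 and 8.72 CPM of Lag3, near the members.

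Among the lower genes, Cd83, a surface activation marker, measured 3.45, 2.13 and 2.52 CPM against 47.1, 23.5 and 34.4 (-3.67 ± 0.49, adjusted p = 2.9e-05, edgeR). Samsn1, an adaptor that restrains B cell activation, measured 6.91, 6.39 and 0 against 68.7, 42.4 and 42.9 (-3.53 ± 0.43, adjusted p = 7.0e-06, edgeR). Btla, another inhibitory receptor, measured 3.45, 2.13 and 7.57 against 50.5, 46.1 and 22.3 (-3.20 ± 0.46, adjusted p = 7.9e-05, edgeR). These 3 genes did not overlap between the classes. The unannotated gene Gm28694 had no UMI in members and 99 in IgM cells, at least 4.50-fold lower with a floor of 3 UMIs over the group.

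Of 17 tested B cell identity genes, Cd83, Btla, Blk (a kinase of the B cell receptor, -2.77) and Irf8 (-1.21) were lower and Cd24a was higher (0.92), with a median of 0.10. Blk missed the threshold without spleen B220-2NBDG- (-2.22, adjusted p = 0.053). Cox6a2, an isoform of a cytochrome oxidase subunit, measured 17.3, 8.52 and 0 CPM against 129, 94.3 and 42.4 (-3.51 ± 0.34, adjusted p = 1.8e-07, edgeR). Hdac9 (-4.02 ± 0.85), Lpp (-3.89 ± 0.87) and the amino acid oxidase Il4i1 (-3.35 ± 0.95) were lower on few UMIs, and without bone marrow Lpp stood at -7.78 and Il4i1 lost its call (-3.34, adjusted p = 0.083). Apoe, the lipid carrier, differed by -3.11 ± 0.36, from 27.6, 6.39 and 7.57 CPM in members against 343, 29.7 and 7.95 in IgM cells, so the bone marrow values were alike. Phlda1 (-3.58 ± 0.63) was high in bone marrow IgM cells alone, 119 against 11.5 and 8.65 CPM in the spleen, and differed by -1.04 without that library (adjusted p = 0.64). Without spleen B220-2NBDG+ it differed by -9.85, where no member UMI was left.

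**Figure D4:**
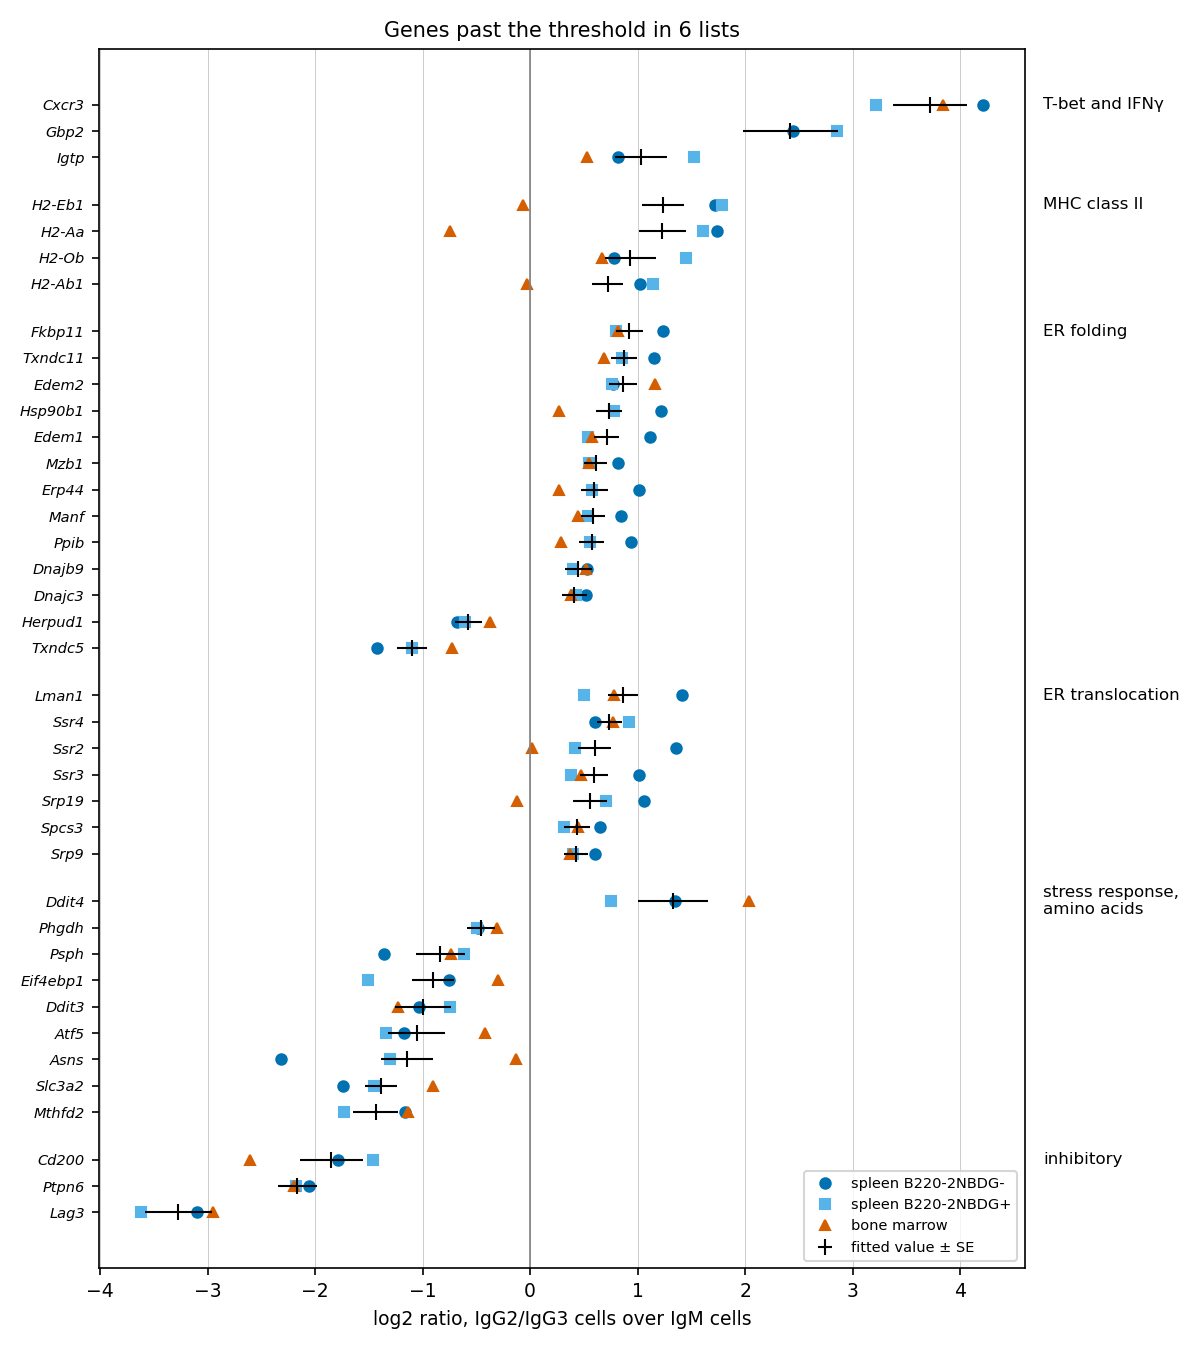
Log2 ratio of IgG2/IgG3 to IgM cells in each B220-negative library (markers) with the fitted difference and its SE, for called genes of 6 lists; a library where both sums were at most 3 UMIs has no marker. H2-Aa lies below 0 in bone marrow, and Lag3 and Ptpn6 lie below 0 in all 3 libraries.

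Part of the secretory apparatus was higher. Of 37 tested ER folding genes 11 were higher and 2 lower (median 0.28), and of 25 genes of translocation into and transport from the ER 7 were higher and none lower (median 0.27). Over all genes tested, 1.81% were higher and 1.93% lower. Mzb1, an ER protein that aids antibody assembly, measured 10902, 6784 and 4817 CPM against 6186, 4639 and 3303 (0.61 ± 0.11, adjusted p = 0.00081, edgeR), and Fkbp11, a prolyl isomerase, 784, 526 and 315 against 332, 302 and 179 (0.92 ± 0.12, adjusted p = 2.9e-05, edgeR). Hsp90b1, the chaperone GRP94, measured 6214, 4037 and 1967 against 2676, 2347 and 1631 (0.73). Within each library the member value was the higher one, although levels were lower in bone marrow than in spleen in both classes. Also higher were Txndc11 (0.87 ± 0.12), Edem2 (0.87) and Edem1 (0.71), which act in the disposal of misfolded proteins, the translocon subunit Ssr4 (0.74) and Lman1, a cargo receptor for export to the Golgi (0.86). Scaling to all UMIs kept 8 of the 11 folding genes and 2 of the 7 translocation genes, Ssr4 and Lman1, and DESeq2 kept 9 and 2. Each library left out kept 4 of the 7.

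Against these, Txndc5, a disulfide isomerase, was lower at 971, 1439 and 1899 against 2601, 3083 and 3142 CPM (-1.10 ± 0.14, adjusted p = 1.1e-05, edgeR), without overlap. Herpud1, of ER-associated degradation, differed by -0.58 and lost its call without spleen B220-2NBDG+ (-0.53, adjusted p = 0.15). Jchain, which links IgM and IgA into polymers, measured 137867, 172450 and 154386 against 245392, 252992 and 217389 CPM (-0.65 ± 0.11, adjusted p = 0.00049, edgeR), and was not called without spleen B220-2NBDG- (-0.49, adjusted p = 0.21). Of 31 glycosylation genes 3 were higher and 1 lower: Fut8, which adds core fucose to N-glycans, measured 435, 339 and 204 against 149, 191 and 196 CPM (0.81 ± 0.16), with bone marrow values alike, and 0.51 without spleen B220-2NBDG-. Stt3b, a catalytic subunit of the oligosaccharyltransferase, measured 117, 42.6 and 32.8 against 231, 187 and 251 (-1.93 ± 0.22, adjusted p = 1.9e-06, edgeR).

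Genes of the integrated stress response and amino acid supply were called lower more often than higher: 8 of 27 tested were lower and 1 higher, with a median of -0.46. Over all genes tested, 1.93% were lower and 1.81% higher. Slc3a2, the heavy chain of CD98 amino acid transporters, measured 687, 1086 and 994 CPM against 2302, 2969 and 1855 (-1.38 ± 0.15, adjusted p = 1.1e-06, edgeR), without overlap. Mthfd2, a mitochondrial enzyme of one-carbon metabolism, measured 55.3, 44.7 and 35.3 against 124, 149 and 77.4 (-1.44 ± 0.21, adjusted p = 7.3e-05, edgeR), also without overlap. Asns, which makes asparagine (-1.14), and the stress response factors Atf5 (-1.05) and Ddit3 (-1.0) were lower too, and Ddit4 was the gene that was higher. DESeq2 kept 2 of the 8 lower genes and lost Asns (-1.22, adjusted p = 0.69), Atf5 and Ddit3, as well as Ddit4. Of the 8, 4 were kept without spleen B220-2NBDG-, 3 without spleen B220-2NBDG+ and 6 without bone marrow. Ddit3 was lost in all 3 of these fits (-1.14 to -0.91), Atf5 without either spleen library (-0.93 and -0.83) and Ddit4 without bone marrow (0.89, adjusted p = 0.32). Of 15 glycolysis genes 1 was higher, and of 12 mitochondrial and 16 cell cycle genes none was called.

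The receptor BCMA and the survival gene Bcl2 were lower. Tnfrsf17 (chr16:11313812-11320074, plus strand) encodes BCMA, the receptor for APRIL and BAFF that supports long-lived plasma cells; it measured 89.8, 138 and 252 CPM against 345, 376 and 475 (-1.35 ± 0.17, a 2.56-fold lower level, adjusted p = 1.2e-05, edgeR). Bcl2, the anti-apoptotic gene, measured 44.9, 74.5 and 40.4 against 160, 139 and 103 (-1.32 ± 0.20, adjusted p = 0.00014, edgeR), and neither gene overlapped between the classes. Bcl2l11, the pro-apoptotic BIM, was higher (1.14), but by 0.46 without spleen B220-2NBDG- (adjusted p = 0.73). Bcl2 and Bcl2l11 were the only called genes of 22 tested on the survival list, where 3.74% of all genes were called. At 2000 UMIs per cell, 5.45%, 14.1% and 10.9% of members held a Bcl2 UMI, against 25.8%, 24.9% and 18.5% of IgM cells. In IgA cells the shares were 10.1%, 17.2% and 8.91%, near the members, and Bcl2 was not called between members and IgA cells.

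Among homing genes, Itga4 and Itgb7, which pair to the integrin that binds MAdCAM-1 in gut vessels, were higher than in IgM cells, as 2 of 7 tested genes of the IgA-linked list. Over all genes tested, 1.81% were higher. Itga4 measured 152, 87.3 and 68.1 against 66.3, 39.5 and 33.9 CPM (1.08 ± 0.18), and Itgb7 55.3, 46.8 and 58 against 17.5, 21.4 and 30.7 (1.18 ± 0.24). Itgb7 did not overlap between the classes, while the lowest Itga4 member value was close to the highest IgM value. Ly6c2 was higher, at 1005, 3831 and 8888 against 741, 1100 and 3142 CPM (1.26 ± 0.17, adjusted p = 4.1e-05, edgeR); it shares sequence with Ly6c1, so reads may be split between them. Pld4, a lysosomal nuclease, measured 197, 138 and 103 against 51.0, 53.1 and 61.5 (1.36 ± 0.18, adjusted p = 2.3e-05, edgeR), without overlap.

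Against IgA cells of the same libraries, 147 of 4590 genes were higher in members (3.2%) and 89 lower (1.94%), together 5.14% (edgeR's quasi-likelihood test with Benjamini-Hochberg adjustment, library block). This comparison shares the member sums with the one above, so its values are given beside it and not as separate support. Without spleen B220-2NBDG+ the count was 98 in place of 236. Cxcr3 (3.66 ± 0.40, adjusted p = 0.00057) and Slpi (3.33 ± 0.34, adjusted p = 0.00041) were higher here too; IgA cells measured 3.43, 4.05 and 2.26 CPM of Cxcr3 and 1034, 6347 and 9999 of Slpi.

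Mucosal homing receptors were lower than in IgA cells. Ccr10, the receptor for mucosal and skin chemokines, measured 17.3, 10.6 and 27.7 CPM in members against 444, 330 and 357 in IgA cells (-4.49 ± 0.24, adjusted p = 2.6e-06, edgeR). Ccr9, the receptor for small intestine, measured 3.45, 8.52 and 2.52 against 34.3, 43.5 and 59.8 (-3.33 ± 0.42). Itgb7, higher than in IgM cells, was lower than in IgA cells (-2.13), which measured 576, 137 and 105 CPM. Of the 6 tested genes of the IgA-linked list 4 were lower and none higher (median -2.73, all genes 0.0068). The share of all genes lower than in IgA cells was 1.94%. Gzma, which encodes granzyme A, measured 3.45, 2.13 and 0 against 46.3, 19.2 and 9.37 (-3.75). Other genes lower by size were Lat, Atp1b1, Runx2, B3gnt8, Bcl2l15, Osbpl3, Samsn1, Itpr1 and Gm19585, between -4.40 and -3.16.

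Of 11 tested genes of the Anxa2, Klf2 and Vim list 7 were lower than in IgA cells (median -1.03), with none higher. Among all genes tested against IgA cells, 1.94% were lower. Klf2, a regulator of lymphocyte trafficking, measured 76.0, 61.8 and 47.9 CPM against 796, 120 and 99.8, and its difference of -2.10 was -1.23 without spleen B220-2NBDG-. Vim, the intermediate filament vimentin, differed by -2.01 and was not called by DESeq2 (-1.19, adjusted p = 1). Tnfrsf17 was lower than in IgA cells as well (-2.10; IgA cells 1137, 452 and 487 CPM).

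MHC genes were higher than in IgA cells: 4 of 7 class II genes (median 1.01) and 6 of 16 class I genes (median 0.47), with none lower. In this comparison 3.2% of all genes were higher and 1.94% lower. B2m, the class I light chain, measured 13728, 18849 and 17029 CPM against 5470, 7595 and 5415 (1.27), without overlap, and Cd74 differed by 1.01. H2-K1 (1.25) and H2-D1 (1.13) are class I heavy chains; H2-Q7 (1.99) belongs to a set of near-identical copies and is uncertain. H2-Aa lost its call without spleen B220-2NBDG+ (0.88, adjusted p = 0.18), as did Cd74 (1.11, adjusted p = 0.098). Pld4 (3.96 ± 0.23), Fcmr, the Fc receptor for IgM (3.78), and Ms4a1 (2.78 ± 0.24) were higher; Ms4a1 measured 204, 151 and 189 CPM against 34.3, 27.3 and 16.5. Ly6c1 (4.47), Spon1 (4.27), Cldn7 (3.75), Chst1 (3.30), Bank1 (3.20), B3galnt1 (3.18), BC035044 (3.08) and Nucb2 (3.06) complete the genes higher by size.

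Among the members, Ighg3 cells were compared with Ighg2b and Ighg2c cells of the same library. Of 2023 genes tested none was higher (0%) and 2 were lower (0.0989%), at 83 with an unadjusted p below 0.05 (edgeR); DESeq2 called 0. Slpi measured 11845, 8647 and 5269 CPM in Ighg3 cells, 18130, 19992 and 92974 in Ighg2b cells and 34522, 60238 and 129755 in Ighg2c cells. The order was Ighg2c, Ighg2b, Ighg3 in each library, and the difference of Ighg3 from the other cells was -2.77 ± 0.41 (adjusted p = 0.0054, edgeR). Mt1, a metallothionein, measured 63.3, 43.2 and 329 CPM in Ighg3 cells (4, 3 and 7 UMIs), below Ighg2b (269, 235 and 971) and Ighg2c (74.9, 422 and 1006), by -2.19 ± 0.34 (adjusted p = 0.0056, edgeR). The Ighg3 sums came from 15, 16 and 4 cells. Neither gene was called by DESeq2 or without spleen B220-2NBDG+ (Slpi -3.02, adjusted p = 1; Mt1 -1.78, adjusted p = 1), and leaving out single libraries gave counts from 0 to 8.

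The difference from IgM cells was itself compared between the 3 B220-negative and the 2 B220-positive libraries by an interaction term. Of 8975 genes, 29 had a higher difference in the B220-negative gates (0.323%) and 13 a lower one (0.145%), together 0.468% (edgeR's quasi-likelihood test with Benjamini-Hochberg adjustment). The count fell to 16 without spleen B220-2NBDG+ and 10 without spleen B220+2NBDG-, and was 24 with all UMIs as the total (13 higher, 11 lower) and 3 by DESeq2. Cxcr3 stood 18.5-fold, 9.31-fold and 21.4-fold above IgM cells in the B220-negative libraries (exact interval 4.43 to 204 for the last, from 9 against 2 UMIs), but 2.07-fold and 3.62-fold in the B220-positive ones (interaction 2.35 ± 0.34, adjusted p = 8.4e-09, edgeR). The level of Cxcr3 itself was higher in the B220-positive gates, at 171 and 166 CPM in IgG2/IgG3 cells and 82.6 and 45.9 in IgM cells.

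For Napsa the IgM cells differed most between the gates: IgG2/IgG3 cells measured 123 and 280 CPM and IgM cells 147 and 202 in the B220-positive gates (interaction 1.72 ± 0.19, adjusted p = 8.9e-16, edgeR). Apoe was higher in IgG2/IgG3 than in IgM cells of the B220-positive gates, 957 and 275 against 597 and 107 CPM, the reverse of the B220-negative spleen (-4.10 ± 0.33, adjusted p = 3.5e-32, edgeR); DESeq2 did not call it, and it was -2.45 without spleen B220-2NBDG-. Prg2, which encodes eosinophil major basic protein, measured 1002 and 1991 against 280 and 992 CPM in the B220-positive gates, and 1057, 2008 and 3634 against 1964, 1934 and 2400 in the B220-negative ones (-1.47 ± 0.18, adjusted p = 2.0e-13, edgeR), again without a call by DESeq2. Bcl2 and Tnfrsf17 were lower than in IgM cells in all 5 libraries, and by less in the B220-negative gates (interaction 1.32 ± 0.32, adjusted p = 0.0093, and 0.94 ± 0.20, adjusted p = 0.0018, edgeR). In the B220-positive gates Bcl2 measured 8.25 and 11.3 against 54.9 and 65.5 CPM and Tnfrsf17 49.1 and 75.4 against 236 and 359. The Bcl2 interaction was lost without spleen B220-2NBDG+ (1.02, adjusted p = 0.56) or without either B220-positive library (1.24, adjusted p = 0.52 and 1.39, adjusted p = 0.18). The Tnfrsf17 interaction was lost without bone marrow (0.58, adjusted p = 0.64) or either B220-positive library (0.93, adjusted p = 0.27 and 0.89, adjusted p = 0.21).

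**Figure D5:**
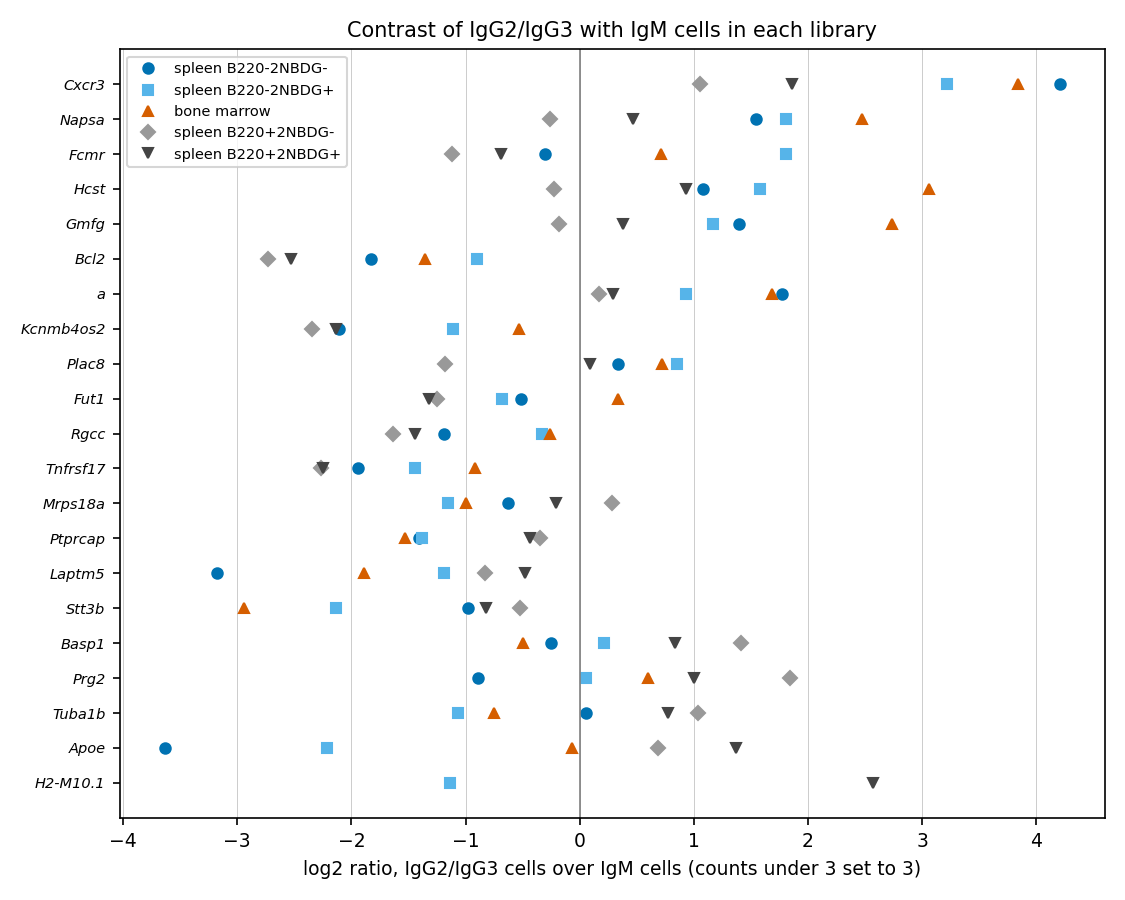
Log2 ratio of IgG2/IgG3 to IgM cells in each of the 5 libraries for the 21 genes named from the interaction; counts under 3 UMIs were set to 3. Cxcr3 lies above 0 in all 5 libraries and farther above it in the B220-negative ones, and Apoe lies above 0 in the B220-positive libraries only.

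Between the gates the members themselves could be compared by level but not tested. A gene was counted when it had at least 20 UMIs in the higher library and a ratio of at least 2. From spleen B220-2NBDG- to B220-2NBDG+, 110 of 2530 genes were higher (4.35%) and 98 lower (3.87%), together 8.22%; scaling to all UMIs gave 157 and 69 and moved the median of all genes from -0.088 to 0.064 (log2). Of the 110 and 98 genes, 20 and 27 were counted in the same direction in IgM cells of those libraries. A ratio of the same sign, of any size, was found there for 82 and 78. The share of all genes with the same sign is not given. Ly6c2 was 3.81-fold higher (exact interval 3.37 to 4.33, 1799 against 291 UMIs), and IgM cells stayed under the 2-fold limit. H2-Aa was 2.23-fold lower (1.66 to 2.99), and the histone gene Hist1h2ap 17.5-fold lower (7.06 to 56.1); both were also counted as lower in IgM cells, Hist1h2ap at 3.71 against 56.2 CPM.

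From spleen B220-2NBDG+ to bone marrow, 58 of 2563 genes were higher in members (2.26%) and 223 lower (8.7%), together 11%. Of the 58 and 223 genes, 29 and 29 were counted in IgM cells too, and 52 and 180 had the same sign there. The median over all genes in members was -0.24 (log2), so the balance toward lower genes is relative to that shift. Slpi was 2.72-fold higher (2.67 to 2.76) and Ly6c2 2.32-fold higher (2.19 to 2.46). H2-Aa was 6.37-fold lower (3.38 to 13.3) and 5 of 7 class II genes were counted as lower. Cxcr3 was 2.53-fold lower (1.16 to 6.12) and Ifi47 7.60-fold lower (2.72 to 29.4), whereas Isg15, an interferon-induced ubiquitin-like protein, was 17.2-fold higher (4.34 to 149; 29 against 2 UMIs). Of these genes, Ly6c2 and Ifi47 were counted in the same direction in IgM cells, and the others were not counted there. For Cxcr3 this came from the UMI minimum, which its 15 UMIs in IgM cells of spleen B220-2NBDG+ did not reach. Bone marrow IgM cells held 2 Cxcr3 UMIs, and the level was lower there too (1.06 against 6.18 CPM). The IgM ratios (log2) were 0.63 for Slpi and -0.32 for H2-Aa, the same signs as in members, and -0.27 for Isg15, the opposite sign. Each gate and organ was a single library, so the library and the gate cannot be told apart.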

How the data were processed

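Per the submitters' processing notes, the authors processed the reads with Cell Ranger 2.1 and build GRCm38; the deposited tables hold raw UMI counts per gene and cell barcode. For the annotation and the barcode filter nothing is stated in the labels. Of 33456 genes, 32739 matched GENCODE M21, which gave symbols and coordinates. Members and gene lists were chosen with earlier results of these data known.

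Cells were classed by heavy-chain UMIs, and counts were summed per class and library. The 267 immunoglobulin genes were left out of sums, totals and tests. Sums were compared with edgeR 4.0.16 (TMM, filterByExpr, quasi-likelihood test, library as a block, R 4.3.3), tested first on simulated data, at an adjusted p of 0.05; log2 differences are given with their SE, the size of the difference divided by the square root of F. The block pairs classes by the library they came from, so pairing comes from the design. A 3' library cannot separate the B220 form of Ptprc, and reads of near-identical genes can be split or lost.

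Named were up to 12 of the largest called genes per direction that moved the same way in each library (8 between libraries; for the interaction, those whose ratios did not overlap between gates), called members of the 23 program lists, and a set of key genes; some of them are not reported here. Other markers came from 11 cell type lists. Scrublet (scanpy 1.11.5, expected rate 0.06) marked doublets, which were kept. For shares of cells with a UMI, cells were thinned to 2000 non-immunoglobulin UMIs, leaving out 14, 11 and 4 members. Alternatives were DESeq2 1.42.0, all UMIs as the total, leaving out Jchain, no low-count filter, 90% dominance, 30 heavy-chain UMIs, no doublets, no cycling cells, kappa cells only, no block and each library left out. Intervals are exact at 95% (scipy 1.17.1) and cover counting error only.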

Additional observations from a re-analysis of the deposited data

Results flagged for a closer look

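Each of the following genes had a difference between IgG2/IgG3 and IgM cells that itself differed between the B220-negative and B220-positive gates (interaction term, edgeR's quasi-likelihood test with Benjamini-Hochberg adjustment; 21 genes named of 42 called, by size among the 26 whose ratios in the 3 B220-negative libraries all lay above, or all below, those in the B220-positive ones). All rest on 3 against 2 libraries, and leaving out 1 library ended most of these calls.

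The difference was larger, or less negative, in the B220-negative gates for Cxcr3 (2.35, log2), Napsa (1.72), Fcmr (1.68), Hcst (1.60), Gmfg (1.38), Bcl2 (1.32), a (1.18), Kcnmb4os2 (1.18), Plac8 (1.11), Fut1 (1.08), Rgcc (0.99) and Tnfrsf17 (0.94). Cxcr3 and Napsa, and Apoe and Prg2 among those below, kept their call in each fit that left out 1 library. Fcmr, the Fc receptor for IgM, measured 58.7, 102 and 27.7 CPM in members and 72.3, 29.2 and 17.0 in IgM cells; in the B220-positive gates it measured 61.9 and 55.5 against 134 and 89.5. The members were thus above IgM cells in spleen B220-2NBDG+ and bone marrow and below them in the other 3 libraries, and without spleen B220-2NBDG+ the interaction was 0.88 (adjusted p = 0.63, edgeR). Rgcc, a regulator of the cell cycle, measured 221, 432 and 335 CPM against 503, 543 and 403, and 74.7 and 150 against 233 and 407 in the B220-positive gates, so it was lower than in IgM cells in all 5 libraries. Plac8 rested on spleen B220+2NBDG- (0.48 without it, adjusted p = 1, edgeR).

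The difference was lower in the B220-negative gates for H2-M10.1 (-9.83), Apoe (-4.10), Tuba1b (-1.58), Prg2 (-1.47), Basp1 (-1.34), Stt3b (-1.25), Laptm5 (-1.19), Ptprcap (-1.07) and Mrps18a (-1.03). H2-M10.1, a nonclassical class I gene, had no UMI in members, and 3, 34 and 3 UMIs in IgM cells of the same libraries, so its fitted value rests on zeros and is no bound. Tuba1b, a tubulin gene, measured 393 CPM in IgG2/IgG3 cells of spleen B220+2NBDG-, where 18.9% of these cells were cycling, and its interaction was -0.65 without cycling cells (adjusted p = 0.91, edgeR).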

How the results depend on the processing

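Pairing is by library. Without the library block, the comparison with IgM cells called 16 genes in place of 258, that with IgA cells 40 in place of 236, the gate interaction 0 (178 at an unadjusted p below 0.05, edgeR) and the subclass comparison 0 (51 unadjusted, edgeR).

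With the block, DESeq2 called 90, 105, 3 and 0 genes in these 4 comparisons. Scaling to all UMIs gave 24 genes for the interaction and 6 for Ighg3 cells. Without the low-count filter the IgA comparison gave 391 and the Ighg3 comparison 9; Ighg3 cells gave 6 at 90% dominance and 1 without cycling cells. Leaving out each library gave 172 to 216 genes against IgM, 98 to 265 against IgA, 10 to 46 for the interaction and 0 to 8 for Ighg3 cells. At 90% dominance the bone marrow share was 3.73%.

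Of 98 named genes called against IgM cells, DESeq2 lost 37 of the 88 to which it gave an adjusted p, all-UMI scaling 23, and leaving out a library 20 to 24. Among genes that were not called, signs turned for Cxcr4 at 90% dominance (-0.21) and Cd9 without the filter (-0.012). With single libraries left out they also turned for Sdc1 (-0.19 to 0.10; positive without spleen B220-2NBDG-), Cxcr4 (-0.11 to 0.21) and Ptprc (-0.30 to 0.52; both negative without spleen B220-2NBDG+), Cd9 (-0.077 to 0.12; negative without spleen B220-2NBDG-) and St6gal1 (-0.069 to 0.31; negative without bone marrow). In the interaction, Ube2c turned without cycling cells (-0.99) and Isg15 without bone marrow (-1.09; 2.15 without spleen B220-2NBDG-). The cause of these changes was not tested. Members numbered 59 to 110 per library, so genes of few UMIs, Ighg3 cells above all, are limited by depth.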

Other observations

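Kappa variable genes were unevenly used among members. A dominant Igkv gene could be called in 59, 53 and 50 members (85.5%, 48.2% and 84.7%) and in 75.5%, 46.1% and 89.8% of IgM cells. Percentages below are of these cells with a call. Median Igkv UMIs per cell were 697, 119 and 647 in members and 559.5, 119.5 and 535.5 in IgM cells. Counts were thus lowest in spleen B220-2NBDG+ in both classes, and whether this shifts the usage seen there was not tested. Igkv6-25 was dominant in 11 of 59 in spleen B220-2NBDG- (18.6%, exact interval 9.69 to 30.9%), against 4 of 815 IgM cells with a call there (0.491%). It was dominant in 0 of 53 members with a call in spleen B220-2NBDG+ and 2 of 50 in bone marrow. Igkv10-96 was dominant in 12 members of spleen B220-2NBDG+ (22.6%) and 6 of bone marrow (12.0%), against 0.389% and 0.379% of IgM cells with a call. Igkv3-4 was dominant in 14 members of spleen B220-2NBDG+ (26.4%) and 8 of bone marrow (16.0%), but also in 60.7% of IgM cells with a call in spleen B220-2NBDG+. Each library pools 3 mice with no map from cells to mice, and these genes were not part of any test.

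The remaining lists are given by their counts against IgM cells, where 3.74% of all genes were called. Of 25 transcription factors 2 were lower (Pou2af1 and Irf8), and of 17 immediate early genes 2 were higher (Dusp1 and Btg2) and 1 lower (Nfkbia). Among 16 class I genes Psmb8 alone was higher, and of 8 germinal centre and 8 marginal zone or B-1 genes none was called. Of the 11 Anxa2, Klf2 and Vim genes 3 were higher (Itgb7, Crip1 and S100a10), and of 16 homing genes 2 were higher (Cxcr3 and Cd24a) and 1 lower. Other cell type lists were low in members: neutrophil genes summed to 0, 0 and 5.04 CPM, NK cell genes to 3.45, 4.26 and 5.04, dendritic cell genes to 13.8, 6.39 and 7.57, erythroid genes to 0, 2.13 and 0, megakaryocyte genes to 0, 8.52 and 0, mast cell and basophil genes to 0 in each library, and stromal genes, mainly Pecam1, to 38.0, 40.5 and 25.2. The plasmacytoid dendritic cell list summed to 1406, 4159 and 9175 CPM through Ly6c2, with Siglech and Klk1 at 0.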
